A study of Mus musculus with 15 samples.

Results

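A set of 10 genes that cells switch on when oxygen is short was followed across birth in the mouse kidney, to see whether they fall together after birth. The genes were Hk2, Slc2a1 and Pdk1 of glucose use, P4ha1 of collagen synthesis, Bnip3 of mitochondrial removal, Vegfa and Adm of blood vessels, the oxygen sensors Egln1 and Egln3, and Ndrg1. They were chosen by symbol, as 10 of the 15967 genes that carry a symbol on the array, with the brightest probe for each gene, and 9 of the 10 passed the filter on dim probes beside 9531 genes tested in all. The samples were kidneys of Balb/c mice with no treatment, 5 arrays at embryonic day 16 (E16d), 5 at postnatal day 1 (PN1d) and 5 at postnatal day 7 (PN7d), so birth lies between the first pair of ages. No age was sampled between E16d and PN1d, so a change between them cannot be placed before or after birth. Total RNA was read on Illumina MouseRef-8 bead arrays, with 1 RNA sample per array. The study's methods call the replicates biological, but no source says whether each RNA came from 1 animal or from a pool, and the p-values rest on how these samples spread. Values are log2 intensities that the authors had quantile-normalized, with a range of 5.56 to 13.80. A probe's brightness also depends on its sequence, so levels were compared between ages and not between genes.

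Hypoxia-inducible factors (HIF) are pairs of a labile alpha subunit and a stable partner, Arnt. When oxygen is present, the prolyl hydroxylases encoded by the Egln genes mark the alpha subunit, and the von Hippel-Lindau protein (Vhl) with its ubiquitin ligase partners sends it to be degraded. When oxygen is short, HIF enters the nucleus, binds a short DNA core in its targets, and raises genes of glucose uptake, glycolysis, vessel growth and mitochondrial turnover. Because this control acts on the protein, the mRNA of the HIF genes need not follow it, and every target is also set by other signals. In the fetal kidney HIF is active in growing nephrons and vessels, and Vegfa, which podocytes make, is among its targets.

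The DNA core is written A or G followed by CGTG, and both spellings, ACGTG and GCGTG, were searched on both strands in the 250 bases before each gene start, as RefSeq gives them for GRCm38.p6. The table held such windows for 9 of the 10 genes, Ndrg1 being the exception. The core was present in 9 of the 11 windows of these genes, against 38.6% of all 32851 windows in the table. ACGTG was in 7 of the 11 windows against 16.6% of all, and GCGTG in 7 of the 11 against 28.2% of all. An ACGTG within the palindrome CACGTG, which other factors also bind, was found in 1 of the 11 windows, that of Bnip3, against 6.02% of all. The windows of 5 genes are shown because they stand for the 3 courses seen below, Hk2 and P4ha1 for genes lower at PN1d, Adm and Pdk1 for genes higher at PN1d, and Vegfa for a gene that was higher at PN7d. They are chr6:82774455-82774704 on the minus strand for Hk2, chr10:59323046-59323295 on the plus strand for P4ha1, chr7:110627407-110627656 on the plus strand for Adm, chr2:71872974-71873223 on the plus strand for Pdk1 and chr17:46032378-46032627 on the minus strand for Vegfa. Each is given from 5′ to 3′ on the strand of its gene, so that the last base lies just before the start, and capitals mark the core, as CACGT or CACGC where it lies on the other strand.
Hk2: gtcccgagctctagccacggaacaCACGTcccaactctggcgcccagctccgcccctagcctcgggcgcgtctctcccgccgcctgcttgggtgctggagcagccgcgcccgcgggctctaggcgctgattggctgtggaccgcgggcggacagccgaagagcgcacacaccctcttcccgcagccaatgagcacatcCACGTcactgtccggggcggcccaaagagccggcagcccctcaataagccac
P4ha1: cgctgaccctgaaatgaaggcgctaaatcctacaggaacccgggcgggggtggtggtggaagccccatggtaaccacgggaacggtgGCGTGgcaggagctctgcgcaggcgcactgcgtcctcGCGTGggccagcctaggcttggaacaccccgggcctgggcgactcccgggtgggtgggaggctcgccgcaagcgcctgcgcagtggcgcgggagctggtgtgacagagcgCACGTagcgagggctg
Adm: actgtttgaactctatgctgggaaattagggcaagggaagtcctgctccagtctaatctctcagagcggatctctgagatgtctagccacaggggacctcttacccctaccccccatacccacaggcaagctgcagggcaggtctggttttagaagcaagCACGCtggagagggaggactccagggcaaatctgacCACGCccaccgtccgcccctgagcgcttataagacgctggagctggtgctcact
Pdk1: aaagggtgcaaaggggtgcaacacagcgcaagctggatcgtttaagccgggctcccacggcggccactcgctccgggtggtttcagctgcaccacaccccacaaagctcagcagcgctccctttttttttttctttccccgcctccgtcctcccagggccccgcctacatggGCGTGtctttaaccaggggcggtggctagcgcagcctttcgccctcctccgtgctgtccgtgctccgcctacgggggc
Vegfa: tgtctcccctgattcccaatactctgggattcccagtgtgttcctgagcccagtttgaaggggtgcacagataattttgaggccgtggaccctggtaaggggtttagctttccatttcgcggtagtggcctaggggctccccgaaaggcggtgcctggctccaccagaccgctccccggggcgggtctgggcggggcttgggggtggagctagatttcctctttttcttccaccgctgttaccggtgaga
The Hk2 window held 2 cores, the nearer of them 52 bases before the start, and the P4ha1 window held 3, the nearest 16 bases before the start. The Adm window held 2 and the Pdk1 window 1, 78 bases before the start. The upstream Vegfa window held none, while a second Vegfa window, at an inner start, held 2 and is counted among the 11. With only the most upstream window of each gene, 8 of the 9 held a core. Windows with the core thus came from genes that were lower and from genes that were higher at the postnatal ages. A match of letters is a description of the window and no evidence of binding.

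The 9 genes that could be tested did not fall together. At PN1d, 2 of the 9 tested genes were lower than at E16d, Hk2 and P4ha1, where 24.9% of all genes tested were lower. In the same comparison 3 of the 9 were higher, Ndrg1, Pdk1 and Adm, where 21.4% of all genes were higher, and Vegfa, Slc2a1, Egln1 and Egln3 did not pass the test. At PN7d against E16d 4 of the 9 were lower, Hk2, P4ha1, Slc2a1 and Egln3, beside 32.2% of all genes, and 4 were higher, Ndrg1, Vegfa, Pdk1 and Adm, beside 32.3% of all genes. Between PN1d and PN7d, Hk2, Slc2a1 and Egln3 were lower, which is 3 of the 9 beside 21.2% of all genes, and only Vegfa of the 9 was higher, beside 24.1% of all genes. The median change of the 9 genes was 0.11 at PN1d against E16d, −0.09 at PN7d against E16d and −0.05 at PN7d against PN1d on the log2 scale, beside medians of −0.02, 0.0016 and 0.0082 over all genes tested. A gene was called where its limma p-value, adjusted over all genes tested, was under 0.05. The comparisons share arrays and are not independent. Arrays of the compared ages did not overlap for 5 of the 9 genes at PN1d against E16d (37% of all genes), for 8 at PN7d against E16d (50.1%) and for 3 at PN7d against PN1d (27.8%). Scaling each array to 4 housekeeping genes raised every difference by 0.076 at PN1d against E16d, 0.276 at PN7d against E16d and 0.2 at PN7d against PN1d, and then 2 of the 9 genes were lower at PN7d against E16d. Small falls at PN7d therefore rest on the scaling, and calls lost with it are given beside the gene. It also turned the split over all genes at PN7d against E16d from 3082 higher and 3068 lower to 5709 and 1290, at PN7d against PN1d from 2301 and 2022 to 4995 and 674, and at PN1d from 2039 and 2376 to 2380 and 1410. In whole kidneys fewer cells of a type and less RNA per cell cannot be told apart.

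**Figure D1:**
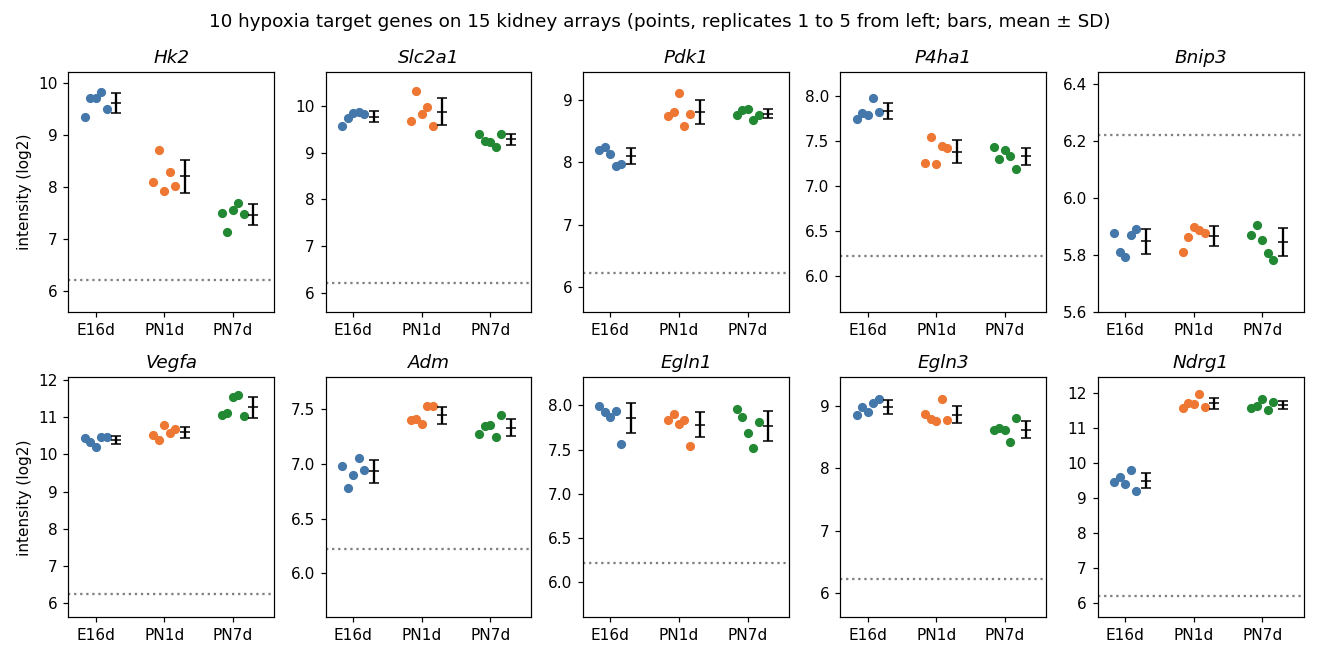
Intensity (log2) of the 10 genes on each of the 15 arrays, 1 panel per gene with its own vertical scale; points are replicates 1 to 5 of each age from left to right, bars the mean ± SD (n = 5), and the dotted line the median of all values, 6.22. Hk2 and P4ha1 step down after E16d, Ndrg1, Pdk1 and Adm step up, Vegfa is highest at PN7d, and Bnip3 lies below the dotted line on all 15 arrays.

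Hk2, the hexokinase that traps glucose in growing and glycolytic cells, was lower at each later age. Its values were 9.34, 9.71, 9.71, 9.83 and 9.51 on the 5 E16d arrays, 8.10, 8.72, 7.92, 8.28 and 8.03 on the PN1d arrays, and 7.50, 7.14, 7.56, 7.69 and 7.49 on the PN7d arrays. The lowest array of each age lay above the highest array of the next. It fell by 1.41 ± 0.14 (SE) on the log2 scale at PN1d (2.66-fold lower, adjusted p = 4.34e-07), which ranked 5 among all genes that were lower, and by a further 0.74 ± 0.14 at PN7d (adjusted p = 0.000389). None of the other hexokinases tested was lower in both steps. Hk1, the form of most tissues, differed from E16d by 0.0014 at PN1d and 0.07 at PN7d, neither past the test. Hk3 was also not past the test at either age, and Hkdc1, a hexokinase-like gene, was lower by 0.22 at PN1d (adjusted p = 0.021, or 0.227 with the housekeeping scaling) and then higher by 0.26 at PN7d (adjusted p = 0.00678). The PN1d array with the highest Hk2 value, replicate 2, is an array that stood apart in other genes, as given below, and without it the fall at PN1d was 1.54.

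Slc2a1, the glucose transporter GLUT1 through which many fetal cells take up glucose, did not pass the test at PN1d and was lower at PN7d. The values were 9.57, 9.74, 9.83, 9.86 and 9.82 at E16d, 9.68, 10.31, 9.83, 9.98 and 9.57 at PN1d, and 9.40, 9.25, 9.23, 9.12 and 9.40 at PN7d. The E16d and PN1d arrays overlapped, and all 5 PN7d arrays lay below the arrays of both earlier ages. The difference at PN1d was 0.11 (95% interval −0.13 to 0.34, adjusted p = 0.449) and was −0.00046 without PN1d replicate 2. From PN1d to PN7d it fell by 0.59 ± 0.11 (adjusted p = 0.000411), and from E16d to PN7d by 0.48 ± 0.11 (adjusted p = 0.0011, or 0.0751 with each array scaled to the housekeeping genes). Among the other glucose transporters Slc2a3, the neuronal form, was lower at PN7d than at E16d by 0.44 (adjusted p = 0.000117), a call that was lost with the housekeeping scaling (−0.16, adjusted p = 0.117), while Slc2a2 and Slc2a4, the liver and the insulin-regulated forms, were higher by 0.16 and 0.21.

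Pdk1, a kinase that switches off pyruvate dehydrogenase, took the opposite course to Hk2 between E16d and PN1d. Its values were 8.19, 8.25, 8.13, 7.95 and 7.98 at E16d, 8.75, 8.80, 9.11, 8.58 and 8.78 at PN1d, and 8.76, 8.84, 8.86, 8.69 and 8.76 at PN7d. Every postnatal array lay above every E16d array, and the arrays of the postnatal ages overlapped. The gene was higher by 0.70 ± 0.08 at PN1d (1.63-fold, adjusted p = 4.19e-06) and changed by −0.02 from PN1d to PN7d (95% interval −0.20 to 0.16). Of the 6 tested relatives of Pdk1, Pdk3 did not pass the test at PN1d (−0.15, adjusted p = 0.0654). The other 5, Pdk2, Pdk4, Pdp1, Pdha1 and Pdhb, were higher, beside 21.4% of all genes tested. The largest was Pdk4, the kinase raised in fasting and by fatty acids, at 1.75 ± 0.15 (adjusted p = 1.62e-07), with values from 6.62 to 6.70 at E16d and from 7.95 to 8.79 at PN1d. Pdk2 was higher by 0.51 at PN1d and by 0.83 at PN7d, each against E16d, whereas Pdk3 was lower by 0.49 at PN7d (adjusted p = 5.49e-06). Pdhb, a subunit of the enzyme these kinases switch off, was higher by 0.85 ± 0.19 at PN1d (adjusted p = 0.00134) and then lower by 0.67 at PN7d (adjusted p = 0.00766).

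**Figure D2:**
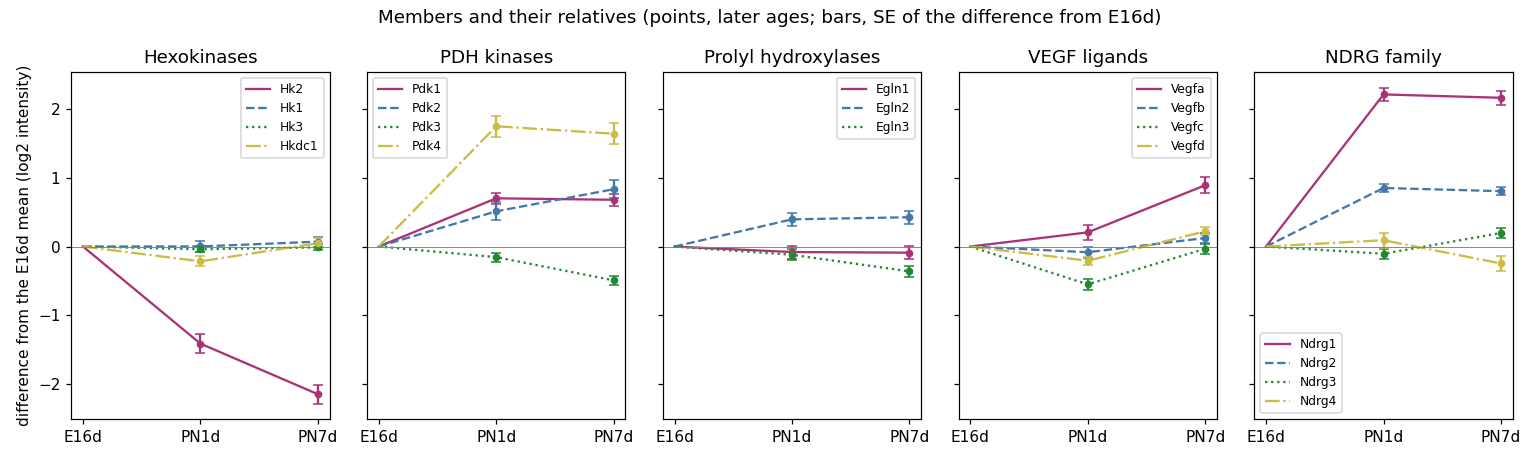
Difference of each later age from the E16d mean (log2 intensity; points, with bars for the SE of the difference) for 5 of the genes or pairs and their relatives, in 5 panels with a shared vertical scale. Hk2 leaves the other hexokinases, while Pdk1 rises with Pdk2 and Pdk4, and Ndrg1 with Ndrg2.

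P4ha1, the catalytic subunit of the enzyme that hydroxylates prolines in collagen, was lower at PN1d, with no further change past the test at PN7d. The values were 7.75, 7.81, 7.79, 7.98 and 7.82 at E16d, 7.26, 7.54, 7.25, 7.45 and 7.43 at PN1d, and 7.43, 7.30, 7.40, 7.34 and 7.19 at PN7d. All 10 postnatal arrays lay below the 5 E16d arrays. The fall was 0.45 ± 0.07 at PN1d (1.36-fold, adjusted p = 3.94e-05) and the change from PN1d to PN7d was −0.05 (95% interval −0.19 to 0.09). Its sister subunit P4ha2 was lower at PN1d by 0.27 (adjusted p = 0.00474, or 0.0800 with the housekeeping scaling). The shared beta subunit P4hb was lower at PN7d than at E16d by 0.21 (adjusted p = 0.0044), but with the scaling the direction turned to 0.07 higher (adjusted p = 0.369).

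Bnip3, which marks mitochondria for removal, gave no level that could be tested. Its probe read between 5.78 and 5.91 on the 15 arrays, below the median of all values (6.22) on 15 of 15, so its course across birth was not measurable here. Its close relative Bnip3l, which clears mitochondria from maturing red cells among others, was measured and was lower by 0.22 at PN1d (adjusted p = 0.026, or 0.150 with the housekeeping scaling) and by a further 0.53 at PN7d (adjusted p = 3.8e-05). Its values ran from 10.55 to 10.81 at E16d, from 10.30 to 10.71 at PN1d and from 9.80 to 10.09 at PN7d. Fundc1, another mitophagy receptor, was lower at PN1d by 0.32 (adjusted p = 0.00494), and Pink1, a kinase that senses damaged mitochondria, was higher at PN7d than at E16d by 1.20 ± 0.11 (adjusted p = 1.23e-07).

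Vegfa, the growth factor that podocytes and tubules release toward endothelium, was highest at PN7d. Its values were 10.44, 10.35, 10.21, 10.47 and 10.48 at E16d, 10.54, 10.39, 10.81, 10.57 and 10.68 at PN1d, and 11.06, 11.12, 11.56, 11.62 and 11.05 at PN7d. All PN7d arrays lay above the others, and replicates 3 and 4 were the highest of the 5. At PN1d the gene differed from E16d by 0.21 ± 0.11 (95% interval −0.03 to 0.44, adjusted p = 0.150), and an exact two-sided permutation test of the same 10 arrays gave p = 0.0397, or 0.0596 adjusted over the 27 such tests. In a fit to the arrays of these ages alone the same difference passed (adjusted p = 0.0424), which made 4 of the 9 genes higher at PN1d. From PN1d to PN7d it was higher by 0.69 ± 0.11 (1.61-fold, adjusted p = 0.000134). Of the podocyte markers named on the array, Nphs1 and Podxl were also higher at PN7d, from 7.09 to 7.62 against 6.79 to 6.99 at E16d for Nphs1 and from 11.88 to 12.22 against 11.36 to 11.66 for Podxl. Wt1 went the other way, from 11.24 to 11.49 at E16d and from 10.56 to 11.11 at PN7d. The sum of the unlogged intensities of these markers was highest on PN7d replicates 3 and 4, at 6739 and 6801 against 5415 to 5973 on the other PN7d arrays and 5240 to 6230 at E16d. At PN1d the sum was highest on replicate 2, at 6390, the array with the lowest Vegfa value of that age. It was 5672 on PN1d replicate 3, the array with the highest. The part of these markers in the Vegfa result was not tested.

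Of the Vegfa family, Vegfc, Vegfd and Pgf were lower and Flt1 higher at PN1d, while Vegfb (−0.08, adjusted p = 0.409) and Nrp1 (−0.12, adjusted p = 0.240) did not pass the test, nor did Vegfa itself. Vegfc, the ligand of lymphatic growth, was lower by 0.55 ± 0.08 at PN1d (adjusted p = 1.72e-05) and higher by 0.52 from PN1d to PN7d (adjusted p = 4.17e-05), and at PN7d it differed from E16d by −0.03. Vegfd was lower by 0.21 at PN1d (adjusted p = 0.00734) and higher by 0.43 from PN1d to PN7d (adjusted p = 1.86e-05), and Pgf, the placental growth factor, was lower by 0.18 at PN1d (adjusted p = 0.00312). With the housekeeping scaling the PN1d calls of Vegfd and Pgf were lost (adjusted p = 0.147 and 0.226). The receptor Flt1 was higher by 0.51 at PN1d (adjusted p = 0.000449). Kdr, the main signalling receptor, read below the median of all values on all 15 arrays and was not tested.

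Adm, which encodes the vasodilator peptide adrenomedullin, was higher at both postnatal ages. The values were 6.98, 6.78, 6.90, 7.05 and 6.94 at E16d, 7.40, 7.40, 7.36, 7.52 and 7.52 at PN1d, and 7.27, 7.34, 7.35, 7.24 and 7.44 at PN7d. No postnatal array overlapped E16d, and the postnatal ages overlapped each other. The gene was higher by 0.51 ± 0.06 at PN1d (1.43-fold, adjusted p = 2.39e-06) and by 0.40 ± 0.06 at PN7d (adjusted p = 1.37e-05). These values lie above the median of all values (6.22) but toward the dim end of the table. A fold change there may be understated if background was not subtracted, which could not be checked. Ramp2, which makes the receptor Calcrl respond to adrenomedullin, was lower at PN1d by 0.27 (adjusted p = 0.000772) and at PN7d by 0.43 (adjusted p = 4.14e-06), and Calcrl itself did not pass the test at either age.

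Of the oxygen sensors, Egln3 was lower at PN7d and Egln1 did not pass the test in any of the 3 comparisons. Egln1, the main HIF prolyl hydroxylase, had values from 7.57 to 8.0 at E16d, 7.54 to 7.90 at PN1d and 7.52 to 7.96 at PN7d. Its differences from E16d were −0.08 at PN1d (95% interval −0.28 to 0.12, adjusted p = 0.519) and −0.09 at PN7d (95% interval −0.29 to 0.11, adjusted p = 0.421), and its other probes did not pass the test in any comparison either. Egln3, a hydroxylase that hypoxia itself raises in many cells, had values of 8.86, 8.98, 8.91, 9.06 and 9.13 at E16d, 8.87, 8.80, 8.77, 9.11 and 8.78 at PN1d, and 8.63, 8.65, 8.61, 8.43 and 8.82 at PN7d. All PN7d arrays lay below the E16d arrays but not below the PN1d arrays. It was lower at PN7d than at E16d by 0.36 ± 0.08 (adjusted p = 0.000718) and than at PN1d by 0.24 ± 0.08 (adjusted p = 0.0196), and the second of these did not pass without PN1d replicate 4 (0.0586) or PN7d replicate 4 (0.0553). With the housekeeping scaling neither Egln3 difference passed (adjusted p = 0.270 and 0.618). Egln2, the third hydroxylase, went the other way, higher by 0.40 ± 0.10 at PN1d (adjusted p = 0.00327) and 0.43 ± 0.10 at PN7d (adjusted p = 0.00112).

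Ndrg1, a stress-responsive gene of differentiated epithelia, made the largest move of the 9. Its values were 9.48, 9.60, 9.42, 9.81 and 9.22 at E16d, 11.59, 11.71, 11.70, 11.98 and 11.62 at PN1d, and 11.59, 11.65, 11.84, 11.53 and 11.74 at PN7d. All 10 postnatal arrays lay far above E16d, and the postnatal ages overlapped. It was higher by 2.21 ± 0.10 at PN1d (4.63-fold, adjusted p = 2.26e-10), rank 19 among all genes that were higher, and changed by −0.05 from PN1d to PN7d (95% interval −0.26 to 0.16). A second Ndrg1 probe gave 2.14 ± 0.11 at PN1d (adjusted p = 6.19e-09). Ndrg2, a relative also found in mature epithelia, was higher by 0.85 ± 0.06 at PN1d (adjusted p = 1.63e-08), while Ndrg3 and Ndrg4 did not pass the test at PN1d and Ndrg4 was lower at PN7d than at PN1d by 0.34 (adjusted p = 0.0167). The Ndrg4 call was lost with the housekeeping scaling (−0.14, adjusted p = 0.247).

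The ages were then set as a sequence of steps, E16d to PN1d and PN1d to PN7d, and the difference between the steps was tested within the same fit. The steps share the PN1d arrays and span unequal times. Of the 9 genes, 6 had unequal steps, where 27.4% of all genes tested did. Ndrg1 (difference −2.26 ± 0.17, adjusted p = 1.16e-07), Pdk1 (−0.72 ± 0.15, adjusted p = 0.00155) and Adm (−0.62 ± 0.10, adjusted p = 0.000263) rose in the first step and did not pass the test in the second. P4ha1 fell in the first step and did not pass the test in the second (0.39 ± 0.12, adjusted p = 0.0182), and this call was lost without PN1d replicate 1 (0.0606) or replicate 3 (0.0632). Slc2a1 fell in the second step (−0.70 ± 0.19, adjusted p = 0.0124). The Hk2 fall was larger in the first step (0.68 ± 0.24, adjusted p = 0.0432), a call that was lost on leaving out any of 11 of the 15 arrays. For Vegfa the difference between steps did not pass the test (0.48 ± 0.20, adjusted p = 0.0804). By the order of the age means, Hk2, P4ha1, Egln1 and Egln3 ran from E16d down to PN7d, an order held by 30.1% of all genes tested, and Ndrg1, Pdk1 and Adm were highest at PN1d and lowest at E16d, an order held by 10.3%, though their PN1d and PN7d means did not differ beyond the spread.

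**Figure D3:**
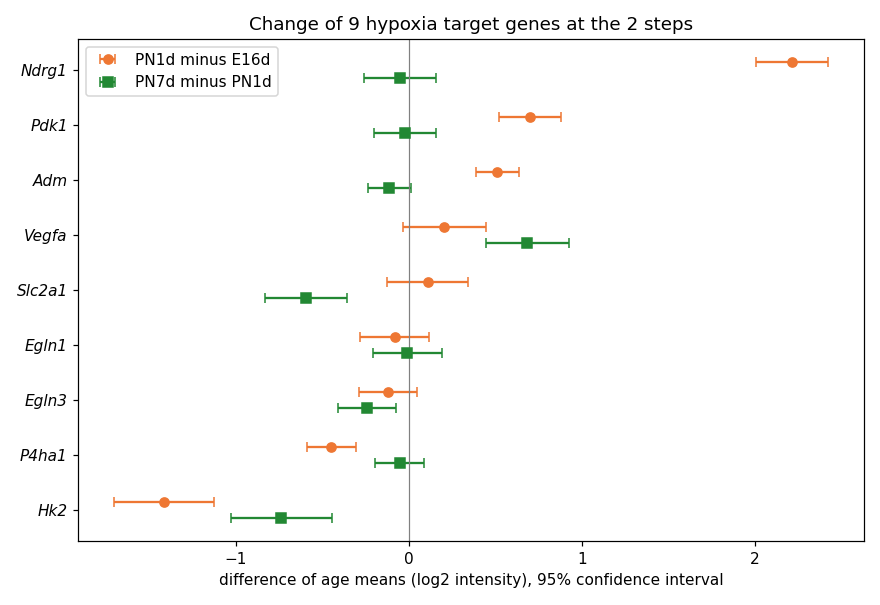
Change (log2 intensity) of the 9 tested genes from E16d to PN1d (circles) and from PN1d to PN7d (squares), with 95% confidence intervals, ordered by the first change. The first step runs from −1.41 for Hk2 to 2.21 for Ndrg1, and in the second step the intervals of Vegfa, Slc2a1, Egln3 and Hk2 lie apart from 0.

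Among the genes that form or control HIF, none of the changes past the test exceeded 0.46 on the log2 scale. Of 15 listed genes of the pathway, 13 were named on the array and 11 tested. At PN1d 2 of the 11 were higher and 2 lower, beside 21.4% and 24.9% of all genes tested. At PN7d against E16d 2 were higher and 4 lower, beside 32.3% and 32.2%, and at PN7d against PN1d none was higher and 2 were lower, beside 24.1% and 21.2%. Hif1a, which encodes the best known alpha subunit, and Hif1an did not pass the filter, and Epas1 and Ep300 were not named on the array. Arnt, the shared partner, differed from E16d by −0.01 at PN1d and −0.04 at PN7d, and Hif3a by −0.03 and −0.01, none past the test. Arnt2, a relative of Arnt, was higher by 0.20 at PN1d (adjusted p = 0.00651) and 0.28 at PN7d (adjusted p = 0.000286). Vhl was lower by 0.33 at PN7d (adjusted p = 0.00777) and by 0.23 at PN1d, where it did not pass (adjusted p = 0.0609). Its ligase partners Eloc and Rbx1 were lower at PN7d than at E16d by 0.39 (adjusted p = 2.68e-05) and 0.46 (adjusted p = 1.7e-06), and lower than at PN1d by 0.45 and 0.33. Elob was lower at PN1d by 0.15 (adjusted p = 0.0101), and Cul2 did not pass the test in any of the 3 comparisons. Siah2, a ligase that targets the hydroxylases, was lower by 0.23 at PN1d (adjusted p = 0.00255) and 0.16 at PN7d (adjusted p = 0.0188), and the coactivator Crebbp did not pass at either age. Of these genes, Arnt lay close above the median of all values (6.22), with means of 6.41, 6.40 and 6.37 at E16d, PN1d and PN7d. Means at these ages were 6.27, 6.37 and 6.27 for Cul2, 6.55, 6.57 and 6.41 for Crebbp, and 6.49, 6.69 and 6.77 for Arnt2. Changes so near the dim end may be understated if background was not subtracted. Small differences in such genes therefore do not show that their mRNA was steady. The counts of higher and lower genes in this list depended on the scaling. With each array scaled to 4 housekeeping genes, 6 of the 11 were higher and 1 lower at PN7d against E16d. Of all 9531 genes tested, 5709 were then higher and 1290 lower. Against PN1d 4 of the 11 were higher and 1 lower, beside 4995 and 674 of all genes. With this scaling Siah2 turned to 0.11 higher at PN7d against E16d (adjusted p = 0.137). The falls of Vhl (−0.05, adjusted p = 0.586) and Eloc (−0.11, adjusted p = 0.135) in that comparison no longer passed, nor did those of Siah2 (adjusted p = 0.0751) and Elob (adjusted p = 0.429) at PN1d and of Rbx1 at PN7d against PN1d (adjusted p = 0.148).

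A wider list of 58 other known HIF targets, of which 49 were named on the array and 44 tested, was set beside the 10 genes. At PN1d 19 of the 44 were higher and 7 lower than at E16d, beside 21.4% and 24.9% of all genes tested, with a median change of 0.20. From PN1d to PN7d 9 were higher and 18 lower, beside 24.1% and 21.2%, with a median of −0.17. Over both steps 15 were higher and 10 lower, beside 32.3% and 32.2%, with a median of 0.01. The lists were chosen with results of these data known, and no list was tested as a set. With the housekeeping scaling the count for PN1d to PN7d became 12 higher and 11 lower (median 0.03). Of all 9531 genes tested, 4995 were then higher and 674 lower (median 0.208). The sign of the list's median in the second step thus rests on the scaling. With or without the scaling it lay below the median of all genes, which was 0.0082 without it.

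Of 12 tested genes of glycolysis beside the 10, 6 were higher and none lower at PN1d, by limma's adjusted p, where 21.4% and 24.9% of all genes were. The others, Ldha, Pkm, Slc2a3, Slc16a3, Pfkfb3 and Pfkfb4, did not pass there. From PN1d to PN7d 1 of the 12 was higher and 9 were lower, beside 24.1% and 21.2% of all genes. Aldoa and Aldoc, aldolases that split the sugar bisphosphate, were higher at PN1d by 0.88 (adjusted p = 8.5e-07) and 0.70 (adjusted p = 1.97e-07), and Pfkp, of the committed step, by 0.55 (adjusted p = 5.08e-07). Tpi1, Gapdh and Pfkl were higher by 0.33, 0.25 and 0.24. From PN1d to PN7d Pfkl fell by 0.61 (adjusted p = 2.43e-06), Pkm, the last enzyme of the pathway, by 0.59 (adjusted p = 1.07e-05), Pfkp by 0.55 and Ldha, which makes lactate, by 0.50 (adjusted p = 0.000239). Pfkfb3, which makes the activator of phosphofructokinase, was the gene that was higher, by 0.38 (adjusted p = 0.00279). With the housekeeping scaling the counts were 7 higher and none lower in the first step and 1 higher and 5 lower in the second. Over all 9531 genes tested it gave 2380 higher and 1410 lower in the first step and 4995 and 674 in the second. Hk2, which feeds this pathway, was thus lower at PN1d while 6 genes further down it were higher.

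Of the targets in vessels and oxygen delivery, 5 of 9 were higher and 2 lower at PN1d, beside 21.4% and 24.9% of all genes tested. Hmox1, which breaks down heme, had values from 9.0 to 9.36 at E16d, from 11.02 to 12.07 at PN1d and from 8.89 to 9.39 at PN7d. It was high at PN1d alone, by 2.30 ± 0.16 against E16d (adjusted p = 1.45e-08), and fell by 2.42 ± 0.16 by PN7d (adjusted p = 9.79e-09), so that its PN7d and E16d arrays overlapped. Angptl4, a fasting-induced inhibitor of lipoprotein lipase, was higher by 1.54 ± 0.21 at PN1d and by 1.82 ± 0.21 at PN7d, each against E16d (adjusted p = 1.27e-05 and 7.98e-07). Tfrc, the transferrin receptor of iron uptake, was lower by 0.56 at PN1d and higher by 0.65 from PN1d to PN7d (adjusted p = 0.00041 and 0.000144). Immature red cells are rich in Tfrc, and 2 of the 5 tested erythroid markers, Slc4a1 and Alas2, were also lower at PN1d. Slc4a1, an anion exchanger, had values from 9.04 to 9.78 at E16d and from 9.07 to 9.58 at PN7d. At PN1d its median was 7.86, with 9.54 on replicate 2. Alas2, of heme synthesis, ran from 9.36 to 10.24, 7.56 to 8.68 and 7.57 to 8.69 at E16d, PN1d and PN7d. Klf1, another of these markers, went the other way at PN1d without passing the test, from 6.45 to 6.58 at E16d and 6.62 to 6.83 at PN1d. The sum of the 6 named on the array, most of it the globin Hba-a1, ran from 13800 to 15900 at E16d, 12000 to 14100 at PN1d and 11900 to 14900 at PN7d, and Epb42 was below the median of all values on all arrays. Their part in the Tfrc and Hmox1 values was not tested. Cxcr4, a chemokine receptor, was lower at PN7d than at E16d by 1.17 ± 0.07 (adjusted p = 8.03e-10). Trf, the plasma iron carrier made chiefly in liver, was higher at PN1d by 1.51 ± 0.53 (adjusted p = 0.027), but its PN1d values were 7.36, 10.98, 7.77, 8.22 and 6.69. Without replicate 2 the difference was 0.82 (adjusted p = 0.00693). The summed intensity of 9 hepatocyte markers on the same PN1d arrays was 2415, 8188, 1711, 3886 and 1059, against 821 to 1210 at E16d. The part of these markers in the Trf values was not tested.

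In the remaining groups the targets moved both ways. Car12, a carbonic anhydrase of the cell surface, was higher at PN7d than at E16d by 1.40 ± 0.08 (adjusted p = 4.86e-10), and Lox, which cross-links collagen, fell by 0.90 ± 0.07 from PN1d to PN7d (adjusted p = 4.06e-08). Bhlhe40, a repressor tied to the clock, was higher at PN7d by 1.42 ± 0.11 against E16d (adjusted p = 6.45e-09) and by 0.89 against PN1d (adjusted p = 6.23e-06). Stc2, a secreted glycoprotein, was higher at PN7d than at PN1d by 0.58 (adjusted p = 6.8e-07). Ddit4, an inhibitor of growth signalling through mTORC1, was lower at PN1d by 0.64 ± 0.07 (adjusted p = 2.48e-06), and Ankrd37 was lower at PN1d by 0.59 (adjusted p = 2.05e-06) and at PN7d by 0.71 (adjusted p = 8.27e-08). Of 29 tested relatives of the 10 genes, 9 were higher and 8 lower at PN1d (21.4% and 24.9% of all genes). At PN7d against E16d 11 were higher and 7 lower (32.3% and 32.2%). Between PN1d and PN7d 7 were higher and 8 lower (24.1% and 21.2%). With the housekeeping scaling the last count was 16 higher and 2 lower, beside 4995 and 674 of all 9531 genes tested.

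**Figure D4:**
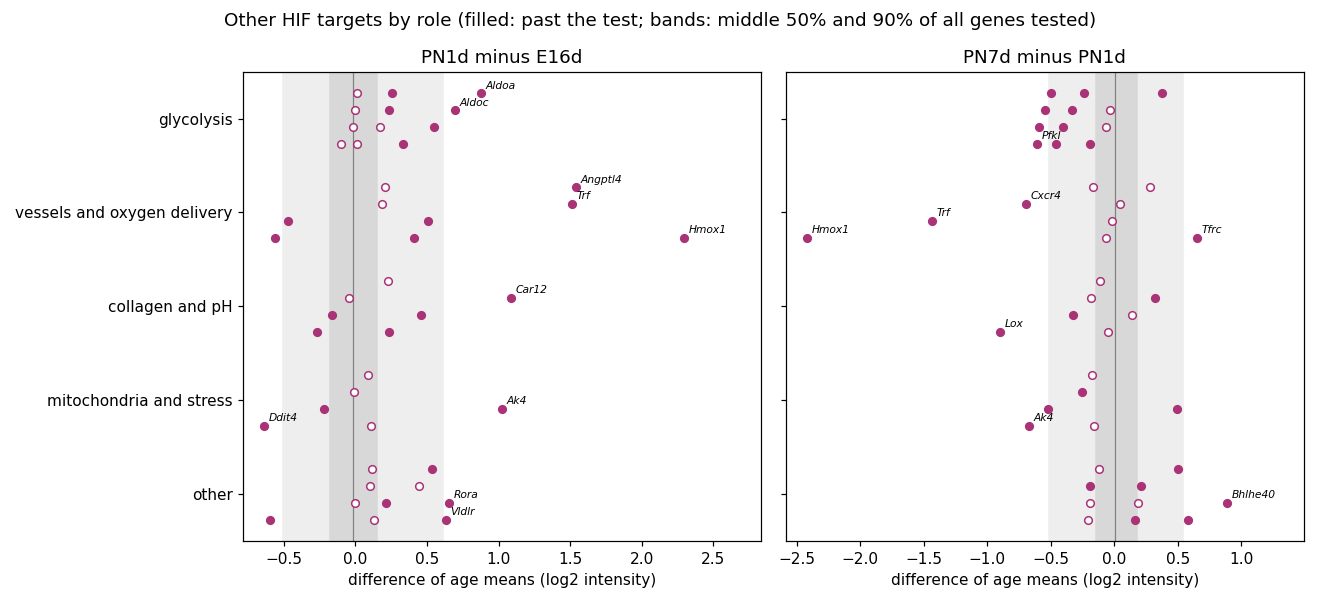
Change (log2 intensity) of 44 other HIF targets, grouped by role, from E16d to PN1d on the left and from PN1d to PN7d on the right; filled points passed the test (limma, adjusted p under 0.05), the grey bands hold the middle 50% and 90% of all genes tested, and the thin line is their median (−0.02 on the left and 0.0082 on the right). The glycolysis genes lie at or to the right of 0 in the first step, except Slc2a3, Pfkfb4 and Pkm slightly to the left, and all but Pfkfb3 to the left in the second, with Hmox1 far out on both sides.

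The makeup of the samples changed with age beside these genes. The summed intensity of 4 proximal tubule markers ran from 5440 to 6940 at E16d, 13000 to 15400 at PN1d and 18500 to 22100 at PN7d. From PN1d to PN7d 3 of them were higher and 1, Slc22a6, was lower. Its values lay from 10.76 to 11.25 at PN1d and from 9.83 to 10.51 at PN7d. Slc5a2 was below the median of all values on all E16d and PN1d arrays. On PN7d replicate 4 it read 6.42, against 9.65 to 10.17 on the other PN7d arrays. The sum of 5 markers of dividing cells ran from 4770 to 5120 at E16d, 2700 to 3100 at PN1d and 1140 to 1670 at PN7d. Endothelial markers ranged from 4740 to 4950 at E16d and 5100 to 5820 at PN7d. Of the kidney epithelium markers, Pax2 and Emx2 were below the median of all values on all 15 arrays, while Pax8, Cdh16 and Lhx1 lay above it. The 9 markers of brown and white adipocytes named on the array summed to 1300 to 1360 at E16d. They summed to 1970 to 2230 at PN1d and 2780 to 9570 at PN7d. Among them Fabp4 was below the median of all values on all 15 arrays, and Plin1 exceeded it on PN7d replicate 1 alone (6.32). Lpl ran from 8.69 to 8.87 at E16d and from 9.60 to 9.79 at PN1d, and Dgat2 from 8.58 to 8.81 and from 9.46 to 9.84. The defining genes Ucp1, Cidea, Cox8b and Adipoq were below the median on all arrays of the earlier ages. With the level of these 4 genes as a covariate, which separates PN7d from the other ages, 2 of the 9 genes were lower at PN7d against E16d, 1 was lower and none higher against PN1d, and 2 had unequal steps. In that fit Slc2a1 differed by −0.58 ± 0.25 from E16d and by −0.69 ± 0.25 from PN1d, and Vegfa by 0.66 ± 0.26 from PN1d, so that these calls were lost with differences near those above and larger errors. Egln3 differed by −0.30 ± 0.18 and −0.18 ± 0.18. The part of the other cell types in the results was not tested. The 9 hepatocyte markers summed to 821 to 1210 at E16d and 1020 to 1460 at PN7d, with Alb and Fgb below the median on all 15 arrays. PN1d replicate 2 stood apart, with a hepatocyte sum of 8188 against 1059 to 3886 on the other PN1d arrays and an immediate early gene sum of 3817 against 2440 to 3149. Without it all 7 counts of the 9 genes, for the comparisons and for unequal steps, were the same.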

How the data were processed

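RNA of 15 kidney samples, 5 for each of E16d, PN1d and PN7d, was hybridized to Illumina MouseRef-8 V1.1 arrays. Ages and replicate numbers came from the sample labels, and the study's methods speak of biological triplicates. The authors scanned the arrays, quantile-normalized the intensities and deposited them on the log2 scale, and these values were used as deposited. Another deposited table has 30 columns of signals and detection p-values under sample numbers that match no label, and it was not used. Background correction before normalization could therefore not be repeated.

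Of 24613 probes, 20984 carried 1 symbol, 1 carried several and 3628 none, and 20968 matched a RefSeq gene by Entrez number. Probes passed where the mean of at least 1 age exceeded 6.22 log2 (an intensity of 74.5), the median of all values. This left 13074 probes and, with the brightest probe for each gene, 9531 genes. All 15 arrays entered 1 linear model of the ages (limma 3.58.1, R 4.3.3) with moderated variances, and p-values were adjusted by Benjamini-Hochberg over all genes in each comparison. The fit was tested on simulated data first. Precision is limited by the 5 arrays of an age, whose median SD was 0.0816 (E16d), 0.0993 (PN1d) and 0.122 (PN7d). Genes named are the 10 genes, those of the HIF pathway list and, of the wider targets and relatives, the 3 that rose most and the 3 that fell most in each comparison among genes past the test. Other genes of glycolysis and of the families were named after their values were seen. The genes, lists and tests were chosen with earlier results of these data known. Alternatives covered the filter, the probe, the variance model, fits to only 2 ages, the replicate block, the methods' test, the background, the scaling, an adipocyte covariate, exact permutation and leaving out each array. The list counts and the calls of list genes under the scaling and without PN1d replicate 2 were added after seeing the data. Promoter windows were searched and figures drawn in Python 3.11.15 with matplotlib 3.10.9.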

Additional observations from a re-analysis of the deposited data

How the results depend on the processing

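Over the 9 genes and 4 comparisons, 513 of 540 values kept their direction and their side of the threshold when an array was left out, and 343 of 377 did under the other alternatives. Without 1 array, the counts were 2 lower and 3 higher at PN1d, 4 lower and 4 higher at PN7d against E16d, 2 to 3 lower and 1 higher at PN7d against PN1d, and 4 to 6 with unequal steps. With the housekeeping scaling (median of all genes moved to 0.278 at PN7d against E16d and 0.208 against PN1d), 2 of the 9 were lower at PN7d against E16d. With the adipocyte covariate the counts were 2 lower at PN7d against E16d, 1 lower and 0 higher against PN1d, and 2 with unequal steps, and over all genes the calls at PN7d against PN1d fell to 844 higher and 747 lower. With the covariate the SE of these differences about doubled (Slc2a1 −0.5776 ± 0.254 and −0.6869 ± 0.253, Vegfa 0.6552 ± 0.259), and the Hk2 difference between steps was 0.2738 ± 0.345. The fit to only the ages compared made Vegfa pass at PN1d (adjusted p = 0.0424), with 4 of the 9 then higher. The cause of the other changes was not tested.

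Among the 9 genes the sign turned only in differences that had not passed the test. With the scaling, Egln1 became 0.1869 (PN7d against E16d) and 0.1911 (PN7d against PN1d), the Egln3 difference between steps 0.0029, and, at PN7d against PN1d, Adm 0.08803, Ndrg1 0.1512, Pdk1 0.1791 and P4ha1 0.1474. With the covariate Egln1 became 0.02027, Ndrg1 0.06102 and Pdk1 0.1066 at PN7d against PN1d. The mean of its probes gave 0.01106 for Egln1 there, and its other probes 0.01778 and 0.02446 there, 0.01586 at PN1d and 0.04032 at PN7d against E16d. The other Ndrg1 probe gave 0.01317 at PN7d against PN1d. Without 1 array, Slc2a1 at PN1d ran from −0.00046 to 0.1853, and at PN7d against PN1d Egln1 ran from −0.06989 to 0.05344, Ndrg1 from −0.09028 to 0.01612 and Pdk1 from −0.0775 to 0.05506. The differences between steps ran from −0.05057 to 0.1443 for Egln1 and from −0.1709 to 0.0019 for Egln3.

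With the same scaling, tried after seeing the data, the HIF pathway list had 0 lower at PN1d, 6 higher and 1 lower at PN7d against E16d, and 4 higher and 1 lower against PN1d. Of all 9531 genes tested, 2380 were then higher and 1410 lower at PN1d. At PN7d 5709 were higher and 1290 lower against E16d, and 4995 and 674 against PN1d. The wider targets had 4 lower at PN1d, 26 higher and 6 lower at PN7d against E16d, and 11 lower against PN1d. Glycolysis had 7 higher and 1 lower at PN7d against E16d and 5 lower against PN1d. The relatives had 3 lower at PN1d, 20 higher and 3 lower at PN7d against E16d, and 16 higher and 2 lower against PN1d. Of the called differences of these genes, 8, 6 and 9 no longer passed at PN1d, at PN7d against E16d and at PN7d against PN1d, and 0, 4 and 4 turned in sign without passing. The turned values were 0.0695 for P4hb, 0.1149 for Siah2, 0.0921 for Pgf and 0.00618 for Cox4i2 against E16d, and 0.0383 for P4hb, 0.0404 for Ramp2, 0.00614 for Aldoc and 0.0080 for Gys1 against PN1d. Without PN1d replicate 2 each of these list counts lay within 1.5 times its value.

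Deviations of samples with the same replicate number correlated from −0.227 to 0.21 over 15 pairs (median 0.0644, 4 of them over 0.1). Those of samples with different numbers correlated from −0.249 to 0.377 over 60 pairs (median −0.0246, 14 over 0.1). The ranges overlapped and showed no strong pairing by number, but correlations this weak cannot exclude a weak one. With the replicate block the calls over all genes were 2034 higher and 2416 lower at PN1d, 3095 and 3090 at PN7d against E16d, and 2293 and 2042 against PN1d. Among the 9 genes it changed no call except the unequal steps of Hk2 (adjusted p = 0.0514). No value was outlying in the 30 groups of 5 arrays examined, where chance gives about 1 in 20. Signal limits Bnip3, which lay below the median of all values throughout.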
